A study of Arabidopsis thaliana with 59 samples.

Results

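The drying responses of SQ-8 and Bur-0, a pair of natural inbred accessions of Arabidopsis thaliana, were set against each other in rosette leaves. For each locus the quantity of interest was the drying response of SQ-8 (dry minus wet) minus the drying response of Bur-0 (dry minus wet), and the processes that moved in opposite directions were described. The members were the 12 arrays of these accessions, out of 59 arrays from 10 accessions in the whole series. They fell into SQ-8 dry, SQ-8 wet, Bur-0 dry and Bur-0 wet, with 3 arrays each, which the series counts as biological replicates. The labels name no mutation or transgene in any group. All plants grew singly in pots of about 150 ml of porous ceramic medium, with nutrient solution and water, under a 10 h day of 330 µmol m-2 s-1 light, 23 C by day and 18 C by night, and 60% humidity. In dry pots the water remaining was lowered in daily steps to about 50% on day 5, and in wet pots it was kept near 90%. The sources used here do not state plant age, the hour of harvest or whether leaves of several plants were pooled.

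Leaves that lose water make abscisic acid (ABA), which closes stomata and turns on genes for protective proteins, while slow drying lets a plant adjust its growth. Salicylate and jasmonate are hormones best known from defence. Salicylate is made from chorismate after signals that pass through the proteins EDS1 and PAD4, and it acts through the coactivator NPR1. Jasmonate is made from plastid fatty acids by lipoxygenases, and it acts by removing JAZ repressor proteins. The JAZ genes, the lipoxygenase genes and the genes of enzymes that break jasmonate down are themselves turned on by it, and their transcripts are often used as its readout. Auxin acts by removing Aux/IAA repressor proteins, whose genes are likewise among its quickest targets.

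The deposited values are on a log2 scale, where a difference of 1 is a 2-fold change, and ran from 3.1 to 14.05 on these 12 arrays. Array medians lay between 5.5 and 5.6, and the correlation of any array with another of its own group was at least 0.965 across loci. Leaf transcripts stood high on every array: the mean over 38 light harvesting and photosystem genes was 11.45 to 12.71, against 4.71 to 4.88 for 13 root markers and 4.21 to 4.53 for 11 floral markers, both low on the scale. Bur-0 wet replicate 1 (Bur-0 wet 1 below, and so on) stood apart for heat shock genes, with a mean over 24 genes of 7.28, against 5.65 and 5.58 on Bur-0 wet 2 and 3. The mean of 8 evening clock genes was 5.38, 6.46 and 7.56 in dry and 5.52, 6.02 and 6.91 in wet SQ-8 leaves, against 6.02, 6.75 and 7.38 in dry and 5.91, 6.37 and 6.79 in wet Bur-0 leaves. In all 4 groups it was lowest on the array numbered 1 and highest on the array numbered 3. The part of this order in the other results was not tested. With 3 arrays per group, the number of arrays limits the precision of every value.

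To find where the accessions responded differently, the difference of the responses was tested at each of 20728 loci with limma, on a fit of all 59 arrays. It passed an adjusted p of 0.05 at 906 loci (4.37%), with SQ-8 above Bur-0 at 506 loci (2.44%) and SQ-8 below Bur-0 at 400 loci (1.93%). At an unadjusted p under 0.05 there were 4093 loci (19.7%). Of 121 called loci with a difference of at least 2 on the log2 scale, 112 had SQ-8 above Bur-0 and 9 had SQ-8 below. At 482 loci (2.33%) the fitted response was up in SQ-8 and down in Bur-0, with median responses of 0.68 in SQ-8 and -0.44 in Bur-0. At 377 loci (1.82%) it was down in SQ-8 and up in Bur-0, with medians of -0.49 in SQ-8 and 0.44 in Bur-0. Together these were 859 loci (4.14%). A large difference is most easily reached when the responses have opposite signs, so nothing is read from the share of called loci that do. Over all loci, called or not, 53.2% had responses of opposite sign, and Pearson's r between the responses was 0.0986 across loci, which are not independent of each other.

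The count of 906 loci depended on single arrays. It was 309 without SQ-8 wet 3, 411 without Bur-0 wet 1, 531 without SQ-8 dry 2, 565 without Bur-0 dry 2 and 580 without SQ-8 dry 3. With array medians centred, which moved the median difference of all loci by 0.11, it was 1424. SQ-8 was above at 55.8% of the calls as deposited, at 79.5% with array medians centred, at 69.1% with quantile normalization, at 48.2% with the replicate number as a block, at 47.1% with loci below a mean of 5 left out and at 43.0% with the 12 arrays fitted without the other 47, so the majority among the calls depends on the processing. The 12 arrays alone gave 356 calls, and of the 78 loci named below whose difference was called on all arrays, 46 did not pass there.

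**Figure D1:**
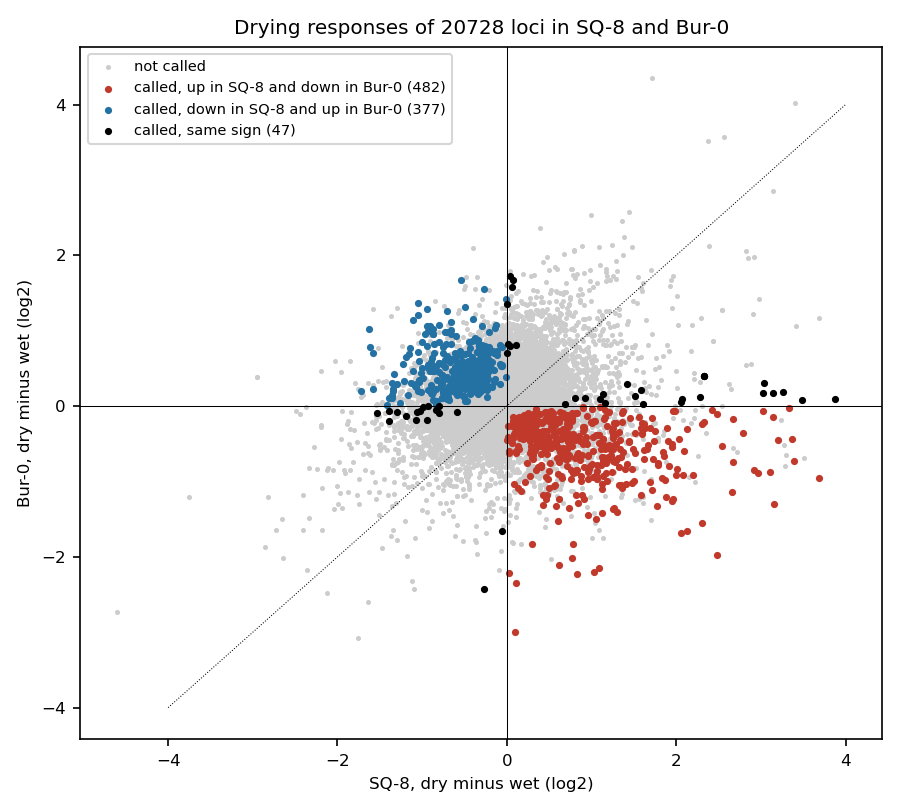
Drying response (dry minus wet, log2) of each of 20728 loci in SQ-8 (horizontal axis) and in Bur-0 (vertical axis). Coloured points are the 906 loci called for the difference of the responses, 482 of them up in SQ-8 and down in Bur-0, 377 down in SQ-8 and up in Bur-0, and 47 with the same sign in both, and the dotted line marks equal responses.

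Each accession's own response was also tested. In SQ-8, 538 loci were higher (2.6%) and 487 lower (2.35%) in dry leaves, and in Bur-0, where 563 loci (2.72%) were called in all, 361 were higher (1.74%) and 202 lower (0.975%). Of the 538 loci that rose in SQ-8, 338 (62.8%) had a fitted response below 0 in Bur-0, with a median of -0.10 there. Of the 487 that fell in SQ-8, 241 (49.5%) had one above 0 in Bur-0. Of the 361 that rose in Bur-0, 147 (40.7%) had one below 0 in SQ-8, and of the 202 that fell in Bur-0, 121 (59.9%) had one above 0 in SQ-8. Over all loci the share of opposite signs was 53.2%. In all, 40 loci passed in both accessions. Of these, 15 rose in both, 8 fell in both and 17 (0.082% of all loci) went in opposite directions. A fold in RNA from whole leaves cannot tell fewer cells of a type from less RNA per cell, here and in all results below.

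Those 17 loci, named here after their values were seen, were the ones where the rise in one accession and the fall in the other each passed by itself. They rose in SQ-8 and fell in Bur-0 at 11 loci (0.0531%) and the reverse held at 6 (0.0289%). Among the 11 were XTR6, a xyloglucan endotransglucosylase gene of cell wall remodelling, TET8, a tetraspanin gene, VPS60.1, a gene of the membrane-sorting ESCRT machinery, and GLR2.5, a glutamate receptor-like channel gene. XTR6 (also XTH23) had the largest difference of the 17, with 7.02, 7.36 and 6.58 in dry and 4.82, 5.0 and 4.77 in wet SQ-8 leaves, against 5.19, 5.24 and 5.7 in dry and 8.02, 5.63 and 7.44 in wet Bur-0 leaves. Every dry SQ-8 array lay above every wet one, and in Bur-0 wet 1 and 3 were high while wet 2 overlapped the dry arrays. The response was 2.12 in SQ-8 (adjusted p = 0.000679) and -1.65 in Bur-0 (adjusted p = 0.0181), a difference of 3.78 ± 0.55 (SE, adjusted p = 0.00013), and its highest adjusted p with any of the 12 arrays left out was 0.00115.

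TET8 responded by 0.62 in SQ-8 and -0.57 in Bur-0, a difference of 1.19 ± 0.23 (SE, adjusted p = 0.00176). For VPS60.1 the responses were 0.79 in SQ-8 and -0.88 in Bur-0, a difference of 1.67 ± 0.31 (SE, adjusted p = 0.00135), and for GLR2.5 they were 0.48 in SQ-8 and -0.44 in Bur-0, a difference of 0.91 ± 0.17 (SE, adjusted p = 0.00137). The other 7 have no symbol in the reference table. AT2G20142 had the largest difference of these, 2.7 ± 0.50 (SE, adjusted p = 0.00149), then AT2G42360 (2.08 ± 0.31), AT1G67060 (1.73 ± 0.31), AT2G04305 (1.15 ± 0.22), AT2G33260 (0.85 ± 0.17), AT5G52580 (0.69 ± 0.14) and AT3G49150 (0.65 ± 0.13).

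The 6 loci that fell in SQ-8 and rose in Bur-0 included RFC3, a regulator of fatty acid composition, IAA11, an Aux/IAA repressor gene of auxin signalling, and AtRZ-1c, which encodes an RNA-binding protein. RFC3 read 4.69, 5.14 and 5.31 in dry and 6.37, 5.55 and 6.52 in wet SQ-8 leaves, against 6.51, 7.21 and 6.72 in dry and 5.3, 5.85 and 5.87 in wet Bur-0 leaves. In SQ-8 all dry arrays were below all wet ones and in Bur-0 all were above, and the difference was -2.24 ± 0.47 (SE, adjusted p = 0.00423). IAA11 responded by -0.40 in SQ-8 and 0.45 in Bur-0, a difference of -0.86 ± 0.17 (SE, adjusted p = 0.0022), and AtRZ-1c by -0.58 in SQ-8 and 0.68 in Bur-0, a difference of -1.26 ± 0.24 (SE, adjusted p = 0.0016). PUP11, of the purine permease family, differed by -1.29 ± 0.20 (SE, adjusted p = 0.000191), the cytochrome P450 gene CYP72A11 by -1.69 ± 0.28 (SE, adjusted p = 0.00045) and FRS4, of the FAR1-related family, by -1.49 ± 0.28 (SE, adjusted p = 0.00176). All 17 differences kept an adjusted p under 0.05 with any of the 12 arrays left out, and those of GLR2.5, IAA11 and AtRZ-1c lost it with the 12 arrays alone. The separate calls in the accessions were less firm, as the count of loci that met all conditions was 1 without SQ-8 wet 3, 1 without Bur-0 wet 1, 2 without Bur-0 dry 2, 4 without SQ-8 dry 3, 7 without SQ-8 dry 2 and 7 without SQ-8 wet 1. Without Bur-0 dry 1 the count was 8, without Bur-0 dry 3 it was 11, without Bur-0 wet 2 it was 27 and without SQ-8 wet 2 it was 26.

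Another reading, with no test, took the loci whose 3 differences within replicate number were all above 0 in one accession and all below 0 in the other. The numbers were not taken as pairs in the fit, so these differences depend on the numbering. This held at 938 loci (4.53%) with SQ-8 up and at 1072 loci (5.17%) with SQ-8 down, together 2010 loci (9.7%), and 535 of these loci were also called (259 and 276). The 12 with the largest differences each way are given next.

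Among those up in SQ-8 and down in Bur-0, LTPG5 (AT3G22600), which by its name encodes a lipid transfer protein anchored to the membrane, read 9.62, 7.8 and 8.88 in dry and 6.27, 6.48 and 6.08 in wet SQ-8 leaves, against 7.0, 6.49 and 5.47 in dry and 7.52, 9.11 and 8.26 in wet Bur-0 leaves. In SQ-8 all dry arrays were above all wet ones, and in Bur-0 all dry arrays were below all wet ones. The responses were 2.49 in SQ-8 (adjusted p = 0.0241) and -1.97 in Bur-0 (adjusted p = 0.101), a difference of 4.46 ± 0.96 (SE, adjusted p = 0.00522). AT2G32140, which has no symbol, read 7.5, 8.01 and 8.48 in dry and 5.24, 4.93 and 4.35 in wet SQ-8 leaves, against 6.94, 6.68 and 5.68 in dry and 8.46, 6.71 and 8.04 in wet Bur-0 leaves. Its dry SQ-8 arrays lay far above the wet ones, while dry and wet Bur-0 arrays overlapped, and the difference was 4.46 ± 0.75 (SE, adjusted p = 0.000472).

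JAZ10, a jasmonate repressor gene that jasmonate itself turns on, read 6.41, 8.55 and 8.52 in dry and 4.63, 4.44 and 4.31 in wet SQ-8 leaves, against 5.02, 4.76 and 5.65 in dry and 5.57, 4.83 and 6.36 in wet Bur-0 leaves. Dry SQ-8 arrays were all above the wet ones, with dry 1 the lowest of them, and the Bur-0 arrays overlapped. The responses were 3.36 in SQ-8 (adjusted p = 0.00102) and -0.44 in Bur-0 (adjusted p = 0.785), and the difference was 3.81 ± 0.90 (SE, adjusted p = 0.0113). ROF2 (AT5G48570), which encodes a heat-induced peptidyl-prolyl isomerase, read 5.6, 7.63 and 8.02 in dry and 4.07, 4.52 and 4.68 in wet SQ-8 leaves, against 4.69, 4.08 and 3.87 in dry and 7.55, 4.38 and 4.12 in wet Bur-0 leaves. In Bur-0 only wet 1 was high, the array that stood apart for heat shock genes. With all arrays the difference was 3.8 ± 0.69 (SE, adjusted p = 0.00114), and without Bur-0 wet 1 it was 2.7, adjusted p = 0.00438. HB1, a haemoglobin gene induced by low oxygen, read 6.76, 10.90 and 9.0 in dry and 5.81, 5.41 and 5.98 in wet SQ-8 leaves, against 6.95, 6.67 and 7.04 in dry and 6.98, 6.72 and 7.39 in wet Bur-0 leaves. All dry SQ-8 arrays were above the wet ones, with dry 2 and 3 far above and dry 1 within the range of the Bur-0 arrays, which overlapped. The difference of 3.3 ± 0.80 (SE, adjusted p = 0.0137) was lost without SQ-8 dry 2 (adjusted p = 0.073).

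Of the remaining 6, PMZ, a stress-associated zinc finger gene, differed by 3.24 ± 0.63 (SE, adjusted p = 0.002), the cysteine-rich receptor kinase gene CRK7 by 3.22 ± 0.61 (SE, adjusted p = 0.00161) and XBAT34, a gene of the ankyrin and RING ubiquitin ligase family, by 3.19 ± 0.64 (SE, adjusted p = 0.00317). These held with any of the 12 arrays left out, and CRK7 was lost with the 12 arrays alone. CPK29, a calcium-dependent kinase gene, differed by 3.1 ± 0.77 (SE, adjusted p = 0.0161), a call lost without SQ-8 dry 3, Bur-0 dry 2 or Bur-0 wet 1 (adjusted p from 0.0527 to 0.0905). PP2-A5, of the phloem protein 2 lectin family, differed by 3.08 ± 0.81 (SE, adjusted p = 0.0215), a call lost without SQ-8 dry 2 or 3, SQ-8 wet 3 or Bur-0 wet 3 (adjusted p from 0.0521 to 0.0917). GA2OX6, which encodes an enzyme that inactivates gibberellin, differed by 3.06 ± 0.92 (SE, adjusted p = 0.0451), a call lost without SQ-8 dry 2 or 3, SQ-8 wet 1 or 3, Bur-0 dry 1 or 2 or Bur-0 wet 1 or 3 (adjusted p from 0.0694 to 0.143).

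Among those down in SQ-8 and up in Bur-0, HAT2, an auxin-induced homeodomain-leucine zipper gene, read 7.67, 7.92 and 8.37 in dry and 9.27, 9.61 and 9.94 in wet SQ-8 leaves, against 8.05, 8.97 and 8.96 in dry and 6.41, 8.36 and 8.15 in wet Bur-0 leaves. All dry SQ-8 arrays were below all wet ones, and Bur-0 wet 1 was the lowest Bur-0 array. The difference of -2.65 ± 0.72 (SE, adjusted p = 0.0259) was lost without SQ-8 dry 1 or 2, SQ-8 wet 3, Bur-0 dry 2 or 3 or Bur-0 wet 1 (adjusted p from 0.0541 to 0.126). BRH1, a RING finger gene that responds to brassinosteroid, read 9.78, 9.36 and 9.88 in dry and 10.57, 10.60 and 11.01 in wet SQ-8 leaves, against 10.66, 10.87 and 10.58 in dry and 9.09, 10.57 and 8.82 in wet Bur-0 leaves. The dry arrays were all below the wet ones in SQ-8 and all above them in Bur-0, where wet 2 came close to the dry arrays. The responses were -1.05 in SQ-8 (adjusted p = 0.0647) and 1.21 in Bur-0 (adjusted p = 0.0457), a difference of -2.26 ± 0.49 (SE, adjusted p = 0.00521) that held with any of the 12 arrays left out and was lost with the 12 arrays alone.

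AT1G15260, which has no symbol, read 6.97, 6.5 and 6.11 in dry and 8.27, 8.0 and 8.16 in wet SQ-8 leaves, against 7.32, 7.55 and 7.49 in dry and 6.55, 6.76 and 6.68 in wet Bur-0 leaves, with dry below wet on all SQ-8 arrays and dry above wet on all Bur-0 arrays. Its difference was -2.41 ± 0.47 (SE, adjusted p = 0.00225). AT4G32290 differed by -1.92 ± 0.33 (SE, adjusted p = 0.000664), AT3G10120 by -2.23 ± 0.50 (SE, adjusted p = 0.00807), AT2G39670 by -1.88 ± 0.38 (SE, adjusted p = 0.00319) and NF-YB3, a subunit gene of the NF-Y transcription factor, by -2.0 ± 0.42 (SE, adjusted p = 0.00395), and these calls, with those of AT1G15260 and RFC3, held with any of the 12 arrays left out. Those of AT3G10120 and NF-YB3 were lost with the 12 arrays alone. 4 calls were less firm. MYB59, a MYB factor gene, differed by -2.41 ± 0.67 (SE, adjusted p = 0.0298), a call lost without SQ-8 dry 2 or 3, SQ-8 wet 3, Bur-0 dry 1 or 2 or Bur-0 wet 1 or 3 (adjusted p from 0.0581 to 0.125). CDF3, a cycling Dof factor gene, differed by -1.98 ± 0.58 (SE, adjusted p = 0.041), lost without SQ-8 dry 2 or 3, SQ-8 wet 1 or 3, Bur-0 dry 1 or 2 or Bur-0 wet 1 or 3 (adjusted p from 0.0787 to 0.123). HB5, a homeodomain-leucine zipper gene, differed by -1.92 ± 0.49 (SE, adjusted p = 0.0191), lost without SQ-8 wet 3 or Bur-0 wet 1 (adjusted p from 0.0691 to 0.0745). IAA1, an Aux/IAA repressor gene, differed by -1.88 ± 0.48 (SE, adjusted p = 0.0187), lost without SQ-8 dry 2, SQ-8 wet 3, Bur-0 dry 3 or Bur-0 wet 1 (adjusted p from 0.0528 to 0.0777).

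**Figure D2:**
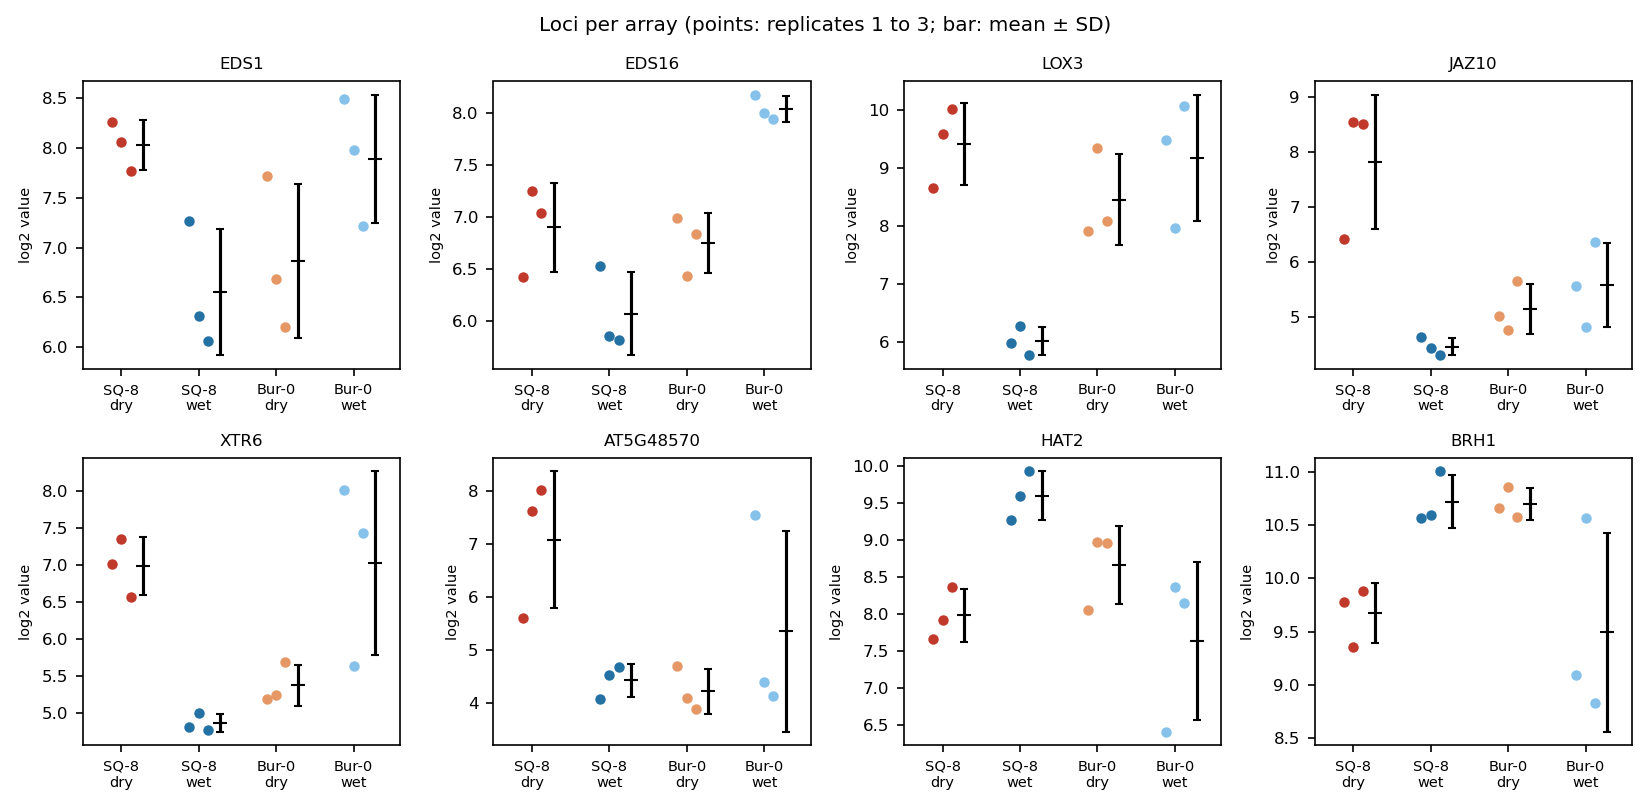
Values (log2) of 8 loci on each of the 12 arrays, in the order SQ-8 dry, SQ-8 wet, Bur-0 dry and Bur-0 wet, with the mean and SD of 3 arrays beside the points. EDS1, EDS16, LOX3, JAZ10, XTR6 and AT5G48570 (ROF2) were higher in dry than in wet SQ-8 leaves on average and lower in dry than in wet Bur-0 leaves, and HAT2 and BRH1 the reverse.

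Processes were described through 42 gene lists. The median over a list's measured members is given beside that of all loci, which was -0.02 for the difference, 0.00195 for the SQ-8 response and 0.000244 for the Bur-0 response. List means per array were used as a description, and no test was made of a list. The total of calls over all loci changed with the setting. List counts under other settings therefore do not compare directly with shares from the fit of all arrays.

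Salicylate defence genes had the highest median difference of the 42 lists. All 30 measured members had a difference above 0, with a median of 1.6. The SQ-8 response was above 0 for 30 of 30 (median 0.84), and the Bur-0 response was below 0 for 28 (median -0.50). The difference was called for 8 of 30 with SQ-8 above, against 2.44% of all loci, and for 0 with SQ-8 below. In SQ-8 alone 7 rose (2.6% of all loci) and 0 fell, and in Bur-0 0 rose and 4 fell (0.975% of all loci). Over its members, the salicylate mean was 7.84, 7.35 and 7.5 in dry and 6.98, 6.38 and 6.39 in wet SQ-8 leaves, against 7.55, 7.05 and 6.58 in dry and 7.82, 8.0 and 7.29 in wet Bur-0 leaves. Dry SQ-8 arrays all lay above wet ones, while in Bur-0 the dry and wet arrays overlapped, and Bur-0 wet 2, SQ-8 dry 1 and Bur-0 wet 1 were the highest of the 12. The number of calls ranged from 4 without SQ-8 wet 3 to 10 without Bur-0 wet 3, was 5 without Bur-0 dry 3, was 13 with array medians centred, and was 2 when the 12 arrays were fitted without the other 47. Calls with SQ-8 above over all loci, 506 in the main fit, moved too. They were 181 without SQ-8 wet 3, 347 without Bur-0 wet 3, 352 without Bur-0 dry 3, 1132 centred and 153 with the 12 arrays alone.

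EDS1, the regulator upstream of salicylate, read 8.26, 8.06 and 7.77 in dry and 7.27, 6.32 and 6.07 in wet SQ-8 leaves, against 7.72, 6.68 and 6.2 in dry and 8.49, 7.98 and 7.21 in wet Bur-0 leaves. All dry SQ-8 arrays were above the wet ones, and dry and wet Bur-0 arrays overlapped. It rose by 1.48 ± 0.36 in SQ-8 (adjusted p = 0.0115), its Bur-0 response was -1.03 ± 0.36 (adjusted p = 0.112), and the difference was 2.5 ± 0.51 (SE, adjusted p = 0.00354). EDS16, better known as ICS1, encodes isochorismate synthase, which makes most salicylate in stress. It read 6.42, 7.25 and 7.03 in dry and 6.53, 5.86 and 5.81 in wet SQ-8 leaves, against 6.99, 6.43 and 6.83 in dry and 8.18, 8.0 and 7.94 in wet Bur-0 leaves. All dry Bur-0 arrays were below all wet ones, and in SQ-8 only dry 1 fell within the wet range. The SQ-8 response of EDS16 was 0.83 ± 0.32 (adjusted p = 0.119), it fell in Bur-0 with a response of -1.29 ± 0.32 (adjusted p = 0.0223), and the difference was 2.12 ± 0.45 (SE, adjusted p = 0.00456).

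SARD1, a transcription factor gene that turns on EDS16, read 5.61, 6.0 and 5.99 in dry and 5.01, 4.72 and 4.67 in wet SQ-8 leaves, against 5.54, 5.6 and 4.98 in dry and 6.57, 6.5 and 5.93 in wet Bur-0 leaves. Dry arrays were all above wet ones in SQ-8 and all below them in Bur-0, and the difference was 2.03 ± 0.46 (SE, adjusted p = 0.00833). ALD1, which encodes an aminotransferase that makes the defence signal pipecolic acid, differed by 1.08 ± 0.23 (SE, adjusted p = 0.00465). The EDS1, EDS16, SARD1 and ALD1 calls held with any of the 12 arrays left out, and those of EDS1 and ALD1 were lost with the 12 arrays alone. NPR1, the salicylate coactivator gene, rose in SQ-8 by 0.72 ± 0.16 (adjusted p = 0.00492), and its difference of 0.92 ± 0.22 (SE, adjusted p = 0.0143) was lost without SQ-8 wet 3 or Bur-0 dry 3 (adjusted p from 0.0609 to 0.0645). PAD4, the partner of EDS1, differed by 2.44 ± 0.67 (SE, adjusted p = 0.0291), a call lost without SQ-8 dry 3, SQ-8 wet 3, Bur-0 dry 3 or Bur-0 wet 1 (adjusted p from 0.0655 to 0.116).

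The pathogenesis-related genes, late targets of salicylate, had larger standard errors. PR1 read 11.83, 10.31 and 11.38 in dry and 8.72, 7.51 and 7.47 in wet SQ-8 leaves, against 10.01, 9.25 and 8.09 in dry and 10.25, 10.74 and 7.92 in wet Bur-0 leaves. All dry SQ-8 arrays were above the wet ones, and in Bur-0 the arrays overlapped, with wet 3 the lowest, and the difference of 3.79 ± 1.33 did not pass (adjusted p = 0.0917), although the SQ-8 response of 3.27 did (adjusted p = 0.0339). BGL2 (PR2), a glucanase gene, differed by 2.48 ± 1.08 (SE, adjusted p = 0.184) and PR5, a thaumatin-like gene, by 2.6 ± 1.04 (SE, adjusted p = 0.144), and neither passed.

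Jasmonate genes had the largest response in SQ-8 of the lists studied, with a median of 1.31 over 29 members and 13 that rose, against 2.6% of all loci. In Bur-0 the median was -0.08, with 18 members below 0, 0 that rose and 0 that fell. The response had an unadjusted p under 0.05 for 19 members in SQ-8, against 19.2% of all loci, and for 3 in Bur-0, against 18.1% of all loci. The difference had a median of 1.33 and was called for 7 with SQ-8 above (2.44% of all loci) and 0 below. As a mean over members, the jasmonate list read 8.0, 8.56 and 8.28 in dry and 6.97, 7.06 and 6.86 in wet SQ-8 leaves, against 8.14, 7.82 and 7.89 in dry and 8.23, 7.51 and 8.45 in wet Bur-0 leaves. Wet SQ-8 leaves were lowest on all 3 arrays, and Bur-0 wet 2 was the lowest Bur-0 array. Calls ranged from 4, without SQ-8 dry 2, SQ-8 dry 3, SQ-8 wet 3, Bur-0 wet 1 or Bur-0 wet 3, to 9, without Bur-0 wet 2, and the 12 arrays alone gave 3.

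LOX3, a lipoxygenase gene of jasmonate synthesis, read 8.65, 9.58 and 10.02 in dry and 5.99, 6.28 and 5.78 in wet SQ-8 leaves, against 7.91, 9.35 and 8.09 in dry and 9.48, 7.96 and 10.07 in wet Bur-0 leaves. The wet SQ-8 arrays were the lowest of the 12, and the Bur-0 arrays overlapped. The responses were 3.4 in SQ-8 (adjusted p = 0.00331) and -0.72 in Bur-0 (adjusted p = 0.661), a difference of 4.12 ± 1.01 (SE, adjusted p = 0.0145). LOX4, a close relative, differed by 2.99 ± 0.88 (SE, adjusted p = 0.0426), a call lost without SQ-8 dry 1, 2 or 3, SQ-8 wet 3, Bur-0 dry 1, 2 or 3 or Bur-0 wet 1 or 3 (adjusted p from 0.0539 to 0.156). CYP94B3 and CYP94C1 encode enzymes that oxidise the active jasmonate to end its signal. CYP94B3 read 8.07, 9.22 and 7.87 in dry and 5.6, 6.22 and 6.42 in wet SQ-8 leaves, against 5.85, 6.07 and 6.71 in dry and 8.62, 5.83 and 8.84 in wet Bur-0 leaves. Dry SQ-8 arrays lay above wet ones, and dry and wet Bur-0 arrays overlapped. Its difference was 3.85 ± 0.84 (SE, adjusted p = 0.00612), and that of CYP94C1 was 2.2 ± 0.46 (SE, adjusted p = 0.00395). LOX3, CYP94B3, CYP94C1 and JAZ10 kept their calls with any of the 12 arrays left out, and CYP94B3 and CYP94C1 lost them with the 12 arrays alone. JAZ1 differed by 2.18 ± 0.57 (SE, adjusted p = 0.0221), a call lost without SQ-8 dry 2 or 3, SQ-8 wet 3 or Bur-0 wet 1 or 3 (adjusted p from 0.0579 to 0.0734).

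Genes of the rapid response to wounding, touch and elicitors had a response above 0 in SQ-8 for 23 of 39 members (median 0.16) and below 0 in Bur-0 for 36 (median -0.44). Most of these responses did not pass: 1 rose and 1 fell in SQ-8 (2.6% and 2.35% of all loci), and 0 rose and 2 fell in Bur-0 (1.74% and 0.975%). The difference (median 0.42) was called for 4 with SQ-8 above (2.44% of all loci) and 0 below, and for 0 without SQ-8 wet 3, 1 without SQ-8 dry 2, 1 without Bur-0 wet 3 and 2 without Bur-0 wet 1 or Bur-0 dry 3. Without Bur-0 wet 2 it was called for 8, and with the 12 arrays alone for 0. The median was 0.69 without SQ-8 wet 2 and 0.63 without Bur-0 wet 1. WRKY53, a transcription factor gene of defence and senescence, read 9.17, 9.85 and 9.45 in dry and 8.92, 9.44 and 8.31 in wet SQ-8 leaves, against 8.55, 8.9 and 7.94 in dry and 10.38, 9.66 and 9.92 in wet Bur-0 leaves. All dry Bur-0 arrays were below the wet ones. It fell in Bur-0, with a response of -1.52 ± 0.39 (adjusted p = 0.0261), and the difference of 2.12 ± 0.55 (SE, adjusted p = 0.0185) was lost without SQ-8 dry 2, SQ-8 wet 3, Bur-0 dry 3 or Bur-0 wet 1 (adjusted p from 0.0572 to 0.0862). YLS9, a gene of hypersensitive and ageing leaves, differed by 2.55 ± 0.61 (SE, adjusted p = 0.012), lost without SQ-8 wet 3 or Bur-0 wet 3 (adjusted p from 0.0524 to 0.0564), and PUB24, a U-box ubiquitin ligase gene that dampens immune signalling, by 1.72 ± 0.44 (SE, adjusted p = 0.018), lost without SQ-8 dry 2, SQ-8 wet 3 or Bur-0 wet 3 (adjusted p from 0.0528 to 0.0862). TCH3, a touch-induced calmodulin-like gene, differed by 1.37 ± 0.40 (SE, adjusted p = 0.0397), lost without SQ-8 dry 2 or 3, SQ-8 wet 3, Bur-0 dry 1, 2 or 3 or Bur-0 wet 1 or 3 (adjusted p from 0.0611 to 0.165). MYB15 (2.73 ± 0.85) and WRKY18 (2.82 ± 1.0) did not pass.

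Heat shock genes were higher in dry than in wet SQ-8 leaves for 21 of 24 members (median 0.56) and lower in Bur-0 for 18 (median -0.35). Most of these responses did not pass: 3 rose and 1 fell in SQ-8 (2.6% and 2.35% of all loci), and 0 rose and 1 fell in Bur-0 (1.74% and 0.975%). The difference (median 0.71) was called for 5 with SQ-8 above, against 2.44% of all loci. Averaged over its members, the heat shock list had 5.74, 6.06 and 6.2 in dry and 5.24, 5.43 and 5.46 in wet SQ-8 leaves, against 5.84, 5.75 and 5.33 in dry and 7.28, 5.65 and 5.58 in wet Bur-0 leaves. In SQ-8 the dry arrays all lay above the wet ones, and in Bur-0 wet 1 alone stood high while the other arrays overlapped. Without Bur-0 wet 1 the Bur-0 median was 0.08, so its sign below 0 rested on that array. The median difference was then 0.53 and 2 members were called, and without Bur-0 wet 3, 9 were called. The count was 2 without SQ-8 dry 3 or SQ-8 wet 3, 3 without SQ-8 dry 2, SQ-8 wet 1 or Bur-0 dry 3, 8 without Bur-0 wet 2, 1 with loci below a mean of 5 left out and 0 with the 12 arrays alone.

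HSP17.6A, a small heat shock protein gene, read 5.0, 6.44 and 7.49 in dry and 3.56, 3.65 and 3.71 in wet SQ-8 leaves, against 5.11, 5.15 and 3.54 in dry and 8.58, 3.69 and 3.77 in wet Bur-0 leaves. Dry SQ-8 arrays were all above wet ones, and in Bur-0 wet 1 was by far the highest. It rose in SQ-8 by 2.67 ± 0.66 (adjusted p = 0.0114), and the difference of 3.42 ± 0.93 (SE, adjusted p = 0.0264) was lost without SQ-8 dry 2 or 3, SQ-8 wet 1 or 3, Bur-0 dry 3 or Bur-0 wet 1 (adjusted p from 0.0511 to 0.128). HSP17.6II differed by 1.87 ± 0.49 (SE, adjusted p = 0.0225), lost without SQ-8 dry 3 or SQ-8 wet 3 (adjusted p from 0.0563 to 0.0648). AT1G53540 differed by 0.80 ± 0.19 (SE, adjusted p = 0.0108), lost without Bur-0 wet 1 (adjusted p = 0.0608). HSP90.1, the heat-induced cytosolic chaperone gene, differed by 2.77 ± 0.80 (SE, adjusted p = 0.037), lost without SQ-8 dry 2 or 3, SQ-8 wet 1 or 3, Bur-0 dry 2 or 3 or Bur-0 wet 1 (adjusted p from 0.0724 to 0.192). HSFA2, a heat shock factor gene, had a difference of 2.74 ± 1.01 that missed the threshold (adjusted p = 0.108). ROF2, given above, kept its call with any of the 12 arrays left out and lost it with the 12 arrays alone. In the endoplasmic reticulum list, by contrast, the responses were below 0 for 15 of 18 members in SQ-8 and 17 in Bur-0. There 1 of 18 members was called with SQ-8 above (2.44% of all loci), BZIP60, a factor of the unfolded protein response, which fell in Bur-0, with a response of -1.18 ± 0.27 (adjusted p = 0.0148) and had a difference of 1.6 ± 0.38 (SE, adjusted p = 0.0113), lost without SQ-8 wet 3 (adjusted p = 0.0609).

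Core genes of the response to low oxygen rose in SQ-8 for 6 of 14 members (median 1.04, 2.6% of all loci) and in Bur-0 for 0 (median -0.11, 1.74%), where 0 had an unadjusted p under 0.05 (18.1% of all loci). The difference was called for 4 with SQ-8 above (2.44% of all loci). Over its members, the hypoxia mean was 5.87, 7.83 and 7.06 in dry and 5.47, 5.58 and 5.81 in wet SQ-8 leaves, against 5.92, 5.87 and 6.04 in dry and 6.05, 5.75 and 6.1 in wet Bur-0 leaves. SQ-8 dry 2 and 3 were far above the other 10 arrays, and SQ-8 dry 1 lay within the range of the wet Bur-0 arrays. Without SQ-8 dry 2 the median difference was 0.31 and 0 members were called, and without SQ-8 dry 1 these were 1.58 and 8. The count was 2 without SQ-8 dry 3, Bur-0 dry 1, Bur-0 wet 1 or Bur-0 wet 3, and 0 with the 12 arrays alone. Besides HB1, HRA1 (AT3G10040), a regulator gene of the low oxygen response, rose in SQ-8 by 2.28 ± 0.37 (adjusted p = 0.000174) with a difference of 2.15 ± 0.52 (SE, adjusted p = 0.0137), lost without SQ-8 dry 2 or 3 (adjusted p from 0.0539 to 0.0726). SRO5 differed by 3.98 ± 1.05 (SE, adjusted p = 0.0221), lost without SQ-8 dry 2 or 3, SQ-8 wet 3, Bur-0 dry 1 or Bur-0 wet 1 or 3 (adjusted p from 0.052 to 0.0802). LBD41, a LOB domain gene of the same response, differed by 2.59 ± 0.78 (SE, adjusted p = 0.0475), lost without SQ-8 dry 2 or 3, SQ-8 wet 1 or 2, Bur-0 dry 1, 2 or 3 or Bur-0 wet 1 or 3 (adjusted p from 0.068 to 0.162). PDC1 (AT4G33070), a pyruvate decarboxylase gene of fermentation, rose in SQ-8 by 0.76 ± 0.17 (adjusted p = 0.00601), and its difference of 0.74 ± 0.24 did not pass (adjusted p = 0.0692).

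Detoxification genes that respond to oxylipins and foreign compounds rose in SQ-8 for 5 of 24 members (median 0.46), against 2.6% of all loci, and fell in Bur-0 for 1 (median -0.04), against 0.975%. The difference (median 0.71) was called for 4 with SQ-8 above (2.44% of all loci), for 0 without SQ-8 wet 3 or Bur-0 dry 3, for 1 without SQ-8 wet 1, Bur-0 wet 1 or Bur-0 wet 3 and for 2 without SQ-8 dry 1, SQ-8 dry 3 or Bur-0 dry 2. With the 12 arrays alone 0 were called, and without SQ-8 dry 1 the median was 0.46. GSTU5, a glutathione transferase gene, rose in SQ-8 by 3.02 ± 0.57 (adjusted p = 0.00101), and its difference of 3.09 ± 0.81 (SE, adjusted p = 0.0207) was lost without SQ-8 dry 3, SQ-8 wet 3, Bur-0 dry 3 or Bur-0 wet 1 (adjusted p from 0.0512 to 0.103). CYP81D8, a cytochrome P450 gene, differed by 1.89 ± 0.50 (SE, adjusted p = 0.0227), lost without SQ-8 dry 1, SQ-8 wet 1 or 3, Bur-0 dry 3 or Bur-0 wet 3 (adjusted p from 0.0522 to 0.0893). GSTU8 differed by 0.70 ± 0.20 (SE, adjusted p = 0.0404), lost without SQ-8 dry 1, SQ-8 wet 1 or 3, Bur-0 dry 2 or 3 or Bur-0 wet 1 or 3 (adjusted p from 0.0703 to 0.17). NAC102, a NAC factor gene, differed by 1.85 ± 0.55 (SE, adjusted p = 0.0448), lost without SQ-8 dry 2 or 3, SQ-8 wet 1, 2 or 3, Bur-0 dry 1, 2 or 3 or Bur-0 wet 1 or 3 (adjusted p from 0.0516 to 0.156). AOX1A, the stress-induced alternative oxidase gene of mitochondria, had a difference of 1.02 ± 0.38 that missed the threshold (adjusted p = 0.112).

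Leaf senescence genes gave 3 of 25 calls with SQ-8 above, against 2.44% of all loci (median difference 0.28), and 2 of these, WRKY53 and YLS9, are also in the rapid response list. The third was SAG21, a late embryogenesis-like gene of ageing and stressed leaves, with a difference of 1.41 ± 0.38 (SE, adjusted p = 0.0246), lost without SQ-8 dry 3, SQ-8 wet 1 or 3, Bur-0 dry 2 or Bur-0 wet 1 (adjusted p from 0.0569 to 0.075). SAG29 rose in SQ-8 by 1.73 ± 0.51 (adjusted p = 0.0389), and its difference of 1.97 ± 0.72 did not pass (adjusted p = 0.106). Without SQ-8 wet 3 no member was called, and 1 was without Bur-0 wet 1 or with the 12 arrays alone. The median difference was 0.17 without SQ-8 dry 1, 0.18 without SQ-8 wet 1 and 0.44 without SQ-8 wet 2.

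Dehydration and ABA genes mostly went the same way in both accessions. The SQ-8 response was above 0 for 35 of 39 members (median 0.94) and the Bur-0 response for 29 (median 0.28). In SQ-8 8 rose, against 2.6% of all loci, and in Bur-0 3 rose, against 1.74%. Signs were opposite for 12 of 39, against 53.2% of all loci. The median difference was 0.29, or 0.53 without SQ-8 wet 3 and 0.50 with loci below a mean of 5 left out. As a mean over members, the dehydration list read 7.6, 7.81 and 7.73 in dry and 6.28, 6.69 and 6.91 in wet SQ-8 leaves, against 7.61, 7.7 and 7.43 in dry and 7.2, 6.76 and 7.0 in wet Bur-0 leaves. Dry arrays lay above wet ones in both accessions without overlap. The difference was called for 1 member (2.44% of all loci), LEA7, a late embryogenesis abundant protein gene, which read 4.57, 5.93 and 5.45 in dry and 3.77, 3.86 and 3.78 in wet SQ-8 leaves, against 3.92, 4.0 and 3.71 in dry and 3.73, 3.72 and 3.77 in wet Bur-0 leaves. All 3 dry SQ-8 arrays were high and the rest overlapped low on the scale, and the difference was 1.38 ± 0.29 (SE, adjusted p = 0.00419), with 0.0253 as the highest adjusted p with any of the 12 arrays left out. The call was lost with the 12 arrays alone, and LEA7, with a mean below 5, was not tested where such loci were left out.

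RAB18, a dehydrin gene that ABA turns on, read 6.26, 6.29 and 7.01 in dry and 3.76, 4.13 and 4.79 in wet SQ-8 leaves, against 6.54, 7.65 and 6.47 in dry and 5.44, 5.35 and 6.39 in wet Bur-0 leaves. Dry arrays were above wet ones in both accessions. It rose by 2.3 ± 0.45 in SQ-8 (adjusted p = 0.00143), its Bur-0 response was 1.16 ± 0.45 (adjusted p = 0.146), and the difference of 1.14 ± 0.63 did not pass (adjusted p = 0.317). HAI1, a phosphatase gene of ABA signalling, rose in SQ-8 by 1.08 ± 0.30 (adjusted p = 0.0295) with a Bur-0 response of 0.48 ± 0.30 and a difference of 0.60 ± 0.43 (adjusted p = 0.46). COR15A, a chloroplast protection gene, had responses of 1.19 ± 0.56 in SQ-8 and 1.72 ± 0.56 in Bur-0, and NCED3, of ABA synthesis, had 0.55 ± 0.42 in SQ-8 and -0.70 ± 0.42 in Bur-0. Neither difference passed (-0.54 ± 0.79 and 1.25 ± 0.59). LTI78 (RD29A) differed by 1.31 ± 1.21 and LTI65 (RD29B) by 0.26 ± 0.20, also without passing.

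**Figure D3:**
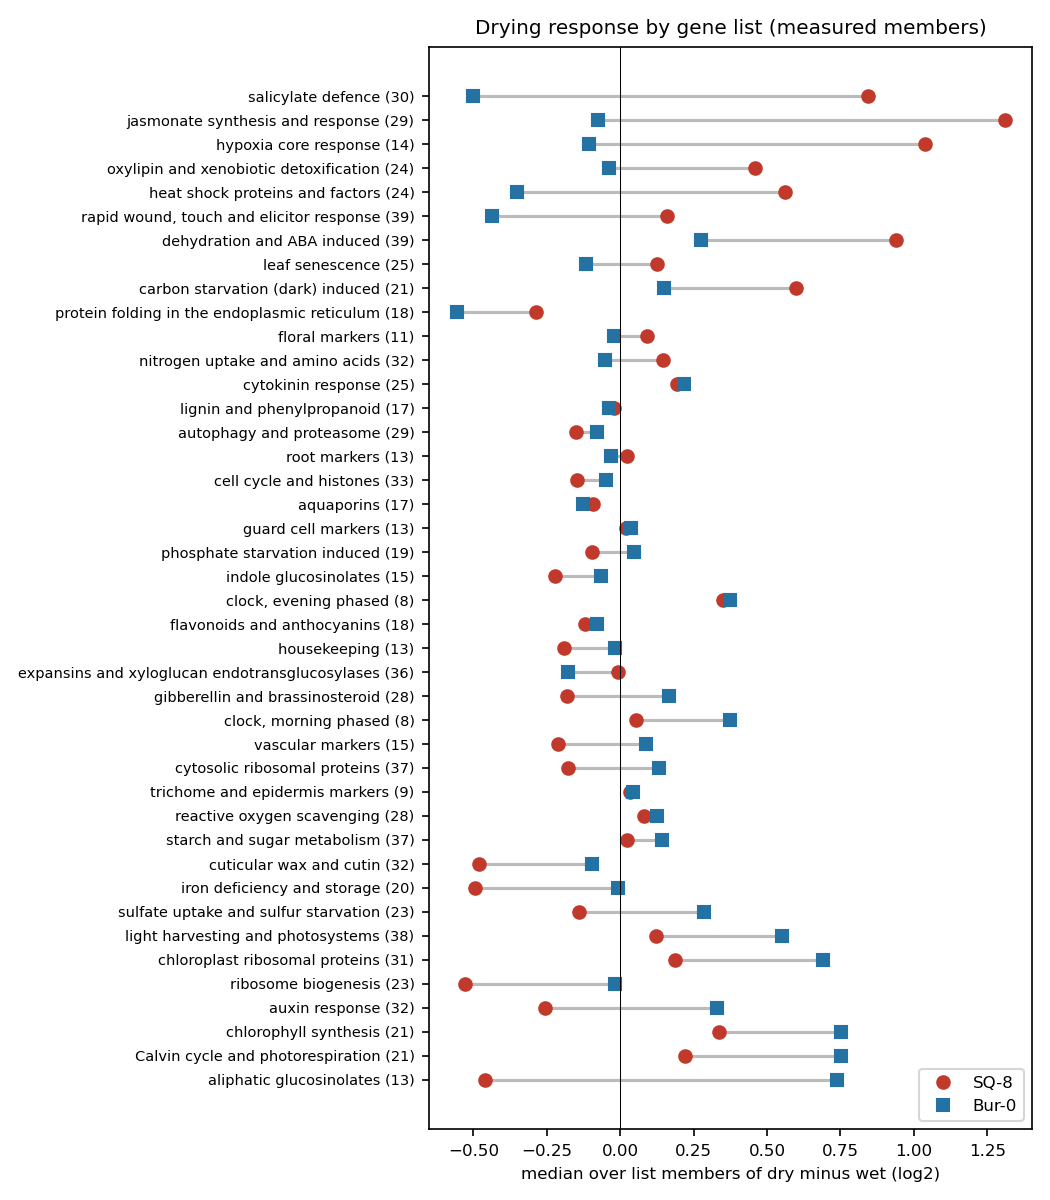
Median over the measured members (number in brackets) of the drying response (dry minus wet, log2) in SQ-8 (red circles) and Bur-0 (blue squares) for 42 gene lists, ordered from the highest to the lowest median difference of the responses. Salicylate defence had medians of 0.84 in SQ-8 and -0.50 in Bur-0, and aliphatic glucosinolates had -0.46 in SQ-8 and 0.74 in Bur-0.

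Auxin response genes leaned the other way. The response was below 0 in SQ-8 for 23 of 32 members (median -0.26) and above 0 in Bur-0 for 25 (median 0.33). Signs were opposite for 20 of 32, against 53.2% of all loci. Taken within replicate number, the median SQ-8 response was 0.07 for number 1, -0.33 for number 2 and -0.49 for number 3. The median difference was -0.06, -0.51 and -0.88 in that order. No member's own response passed in either accession by limma's test, and at an unadjusted p under 0.05 there were 6 in SQ-8 (19.2% of all loci) and 8 in Bur-0 (18.1%). The difference (median -0.52) was called for 3 with SQ-8 below, against 1.93% of all loci, and for 0 above. Averaged over its members, the auxin list had 7.26, 6.96 and 7.21 in dry and 7.09, 7.46 and 7.77 in wet SQ-8 leaves, against 6.87, 7.27 and 7.51 in dry and 6.47, 6.96 and 7.13 in wet Bur-0 leaves. Arrays of dry and wet leaves overlapped in both accessions, the highest SQ-8 values being those of wet 2 and 3 and the lowest Bur-0 value that of wet 1. The 3 were HAT2 and IAA1, given above, and IAA13, another Aux/IAA repressor gene, with a difference of -0.92 ± 0.26 (SE, adjusted p = 0.0335), lost without SQ-8 dry 1, 2 or 3, SQ-8 wet 1 or 3, Bur-0 dry 1, 2 or 3 or Bur-0 wet 1 or 3 (adjusted p from 0.0505 to 0.149). None of the 3 was called without SQ-8 dry 2, SQ-8 wet 3, Bur-0 dry 3 or Bur-0 wet 1, or with the 12 arrays alone, and 1 was without SQ-8 dry 1 or Bur-0 dry 2. AT4G38860 (-2.24 ± 0.86), ATAUX2-11 (-1.5 ± 0.59) and SAUR15 (-1.28 ± 0.62) did not pass.

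Among genes of gibberellin and brassinosteroid, growth hormones, the median response was -0.18 in SQ-8 and 0.17 in Bur-0. These medians depended on single arrays. The Bur-0 median was -0.04 without Bur-0 wet 1 and 0.04 without Bur-0 dry 3, and the SQ-8 median was -0.02 without SQ-8 wet 3. The median difference, -0.22 with all arrays, was -0.005 without Bur-0 wet 1, -0.008 without Bur-0 dry 3 and -0.40 without Bur-0 dry 1. Of 28 members 1 was called with SQ-8 above (2.44% of all loci) and 1 below (1.93%). The first was GA2OX6, given above, and the other BAS1, which encodes an enzyme that inactivates brassinosteroid, with a difference of -1.84 ± 0.54 (SE, adjusted p = 0.0393), lost without SQ-8 dry 2 or 3, SQ-8 wet 3, Bur-0 dry 2 or 3 or Bur-0 wet 1 (adjusted p from 0.0645 to 0.155). In the cytokinin list both accessions had 18 of 25 members above 0, and the median difference was 0.04, or -0.01 without SQ-8 dry 1. There too 1 of 25 was called with SQ-8 above (2.44% of all loci) and 1 below (1.93%). CKX4, a cytokinin-degrading oxidase gene, rose in SQ-8 by 1.58 ± 0.20 (adjusted p = 1.58e-06) against 0.22 ± 0.20 in Bur-0, a difference of 1.37 ± 0.28 (SE, adjusted p = 0.00354). HK2, a cytokinin receptor gene, read 4.96, 4.99 and 5.06 in dry and 5.73, 5.6 and 5.79 in wet SQ-8 leaves, against 5.17, 5.53 and 5.3 in dry and 4.95, 4.65 and 5.23 in wet Bur-0 leaves. It fell in SQ-8, with a response of -0.71 ± 0.18 (adjusted p = 0.0137), with a Bur-0 response of 0.39 ± 0.18 and a difference of -1.1 ± 0.25 (SE, adjusted p = 0.00881). The CKX4 and HK2 calls held with any of the 12 arrays left out, and that of CKX4 was lost with the 12 arrays alone.

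Aliphatic glucosinolate genes, which make the methionine-derived defence compounds of the cabbage family, had the lowest median difference of the lists, -1.09 over 13 members. The response was below 0 in SQ-8 for 9 of 13 (median -0.46) and above 0 in Bur-0 for 13 (median 0.74). Over its members, the glucosinolate mean was 8.17, 7.6 and 7.21 in dry and 8.42, 7.67 and 8.51 in wet SQ-8 leaves, against 9.26, 9.01 and 8.79 in dry and 8.42, 8.21 and 8.33 in wet Bur-0 leaves. In SQ-8 the arrays overlapped, with wet 2 among the dry values, and in Bur-0 all dry arrays were above all wet ones. No member passed for the difference, against 4.37% of all loci, and 5 had an unadjusted p under 0.05 (19.7% of all loci). With array medians centred, with loci below a mean of 5 left out, with the 12 arrays alone or with within-number differences, 1 was called, and without SQ-8 wet 2 or with the replicate number as a block there were 2. MYB28, the main regulator of the pathway, read 6.35, 6.24 and 5.9 in dry and 8.67, 7.57 and 8.35 in wet SQ-8 leaves, against 8.77, 8.34 and 8.23 in dry and 8.01, 7.82 and 7.73 in wet Bur-0 leaves. Dry arrays were all below wet ones in SQ-8 and all above them in Bur-0. It fell in SQ-8, with a response of -2.03 ± 0.58 (adjusted p = 0.0311), with a Bur-0 response of 0.60 ± 0.58 (adjusted p = 0.651) and a difference of -2.63 ± 0.82 that missed the threshold (adjusted p = 0.0546). BCAT3, of methionine chain elongation, differed by -1.09 ± 0.37 (adjusted p = 0.0801) and IPMI1, of the same route, by -2.6 ± 0.98 (adjusted p = 0.117). IIL1 rose in Bur-0 by 1.03 ± 0.24 (adjusted p = 0.0191), and its difference of -0.86 ± 0.34 did not pass (adjusted p = 0.143).

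Photosynthesis and plastid genes had medians above 0 in both accessions, and the responses that passed were mostly in Bur-0. The Calvin cycle and photorespiration list had a median response of 0.22 in SQ-8 and 0.75 in Bur-0, chlorophyll synthesis 0.34 in SQ-8 and 0.75 in Bur-0, chloroplast ribosomal proteins 0.19 in SQ-8 and 0.69 in Bur-0, and light harvesting 0.12 in SQ-8 and 0.55 in Bur-0. In Bur-0 the response was above 0 for 21 of 21, 21 of 21, 30 of 31 and 38 of 38 members, and 3, 2, 3 and 5 of them rose, against 1.74% of all loci. In SQ-8 it was above 0 for 13, 16, 24 and 33, and 0, 1, 0 and 0 rose, against 2.6%. Whether the accessions differ in the share that rose was not tested. None of these members was called for the difference with all arrays, and without Bur-0 wet 3 there were 1, 0, 1 and 2. As fitted on all arrays, 3, 5, 6 and 10 had an unadjusted p under 0.05, against 19.7% of all loci. The Calvin cycle mean was 11.89, 11.47 and 11.41 in dry and 11.88, 11.55 and 11.08 in wet SQ-8 leaves, against 11.50, 11.48 and 10.99 in dry and 10.39, 10.15 and 11 in wet Bur-0 leaves. Bur-0 wet 1 and 2 were the lowest of the 12 arrays and SQ-8 arrays overlapped. The median difference taken within replicate number was -1.07 for number 1, -1.39 for number 2 and 0.47 for number 3, and number 3 alone also had the other sign for chlorophyll (0.20), chloroplast ribosomal proteins (0.17) and light harvesting (0.27).

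Among single plastid genes, HCEF1, a fructose bisphosphatase gene, had a response of 0.29 ± 0.34 in SQ-8 and rose in Bur-0 by 1.25 ± 0.34 (adjusted p = 0.0382). CP12-2, a regulator of the Calvin cycle, had a response of 0.22 ± 0.29 in SQ-8 and rose in Bur-0 by 1.2 ± 0.29 (adjusted p = 0.0203). PSBO1, of the oxygen-evolving complex, had a response of 0.06 ± 0.19 in SQ-8 and rose in Bur-0 by 0.74 ± 0.19 (adjusted p = 0.0269). Their differences of -0.97 ± 0.48, -0.98 ± 0.41 and -0.68 ± 0.27 did not pass.

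Genes of protein synthesis gave no call for the difference in the main fit. Cytosolic ribosomal proteins had medians of -0.18 in SQ-8 and 0.13 in Bur-0, and ribosome biogenesis -0.53 in SQ-8 and -0.02 in Bur-0, with 0 of 37 and 0 of 23 members called for the difference and 2 and 2 at an unadjusted p under 0.05 (19.7% of all loci). Replicate number 2 alone had the other sign for both (0.45 and 0.23). The cytosolic medians depended on single arrays, as Bur-0 had -0.05 without Bur-0 wet 3 and SQ-8 had -0.03 without SQ-8 dry 1. With within-number differences 2 cytosolic members were called with SQ-8 below, where 717 of all loci were. Cell cycle genes had a median difference of -0.02, close to that of all loci, with 13 of 33 above 0 (47.5% of all loci). The difference was called for 3 of 33 with SQ-8 below (1.93% of all loci), all of them histone genes that fell in SQ-8. HTB1 had an SQ-8 response of -1.39 ± 0.29 (adjusted p = 0.00291) against 0.11 ± 0.29 in Bur-0, and its difference of -1.5 ± 0.41 (SE, adjusted p = 0.0265) was lost without SQ-8 dry 2, SQ-8 wet 1 or 3, Bur-0 dry 1 or 3 or Bur-0 wet 3 (adjusted p from 0.0524 to 0.0998). HTA2 had an SQ-8 response of -1.39 ± 0.23 (adjusted p = 0.000193), with a difference of -1.2 ± 0.32 (SE, adjusted p = 0.0258), lost without SQ-8 dry 2 or 3, SQ-8 wet 1 or 3, Bur-0 dry 3 or Bur-0 wet 1 or 3 (adjusted p from 0.0522 to 0.103). HTB4 had an SQ-8 response of -0.84 ± 0.17 (adjusted p = 0.00237), with a difference of -0.85 ± 0.24 (SE, adjusted p = 0.0342), lost without SQ-8 dry 1 or 2, SQ-8 wet 3, Bur-0 dry 1, 2 or 3 or Bur-0 wet 1 or 3 (adjusted p from 0.0547 to 0.119). Histone genes of a family are near-identical in sequence, so signal shared between them cannot be told apart.

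For markers of cell types and other organs, medians of the difference were -0.05 for 13 guard cell markers, -0.30 for 15 vascular markers, -0.35 for 9 trichome and epidermis markers, -0.01 for root and 0.11 for floral markers. The vascular median was -0.07 without Bur-0 wet 2, -0.16 without SQ-8 wet 3, -0.18 without Bur-0 wet 1 and -0.47 without SQ-8 wet 2. The trichome median was -0.10 without Bur-0 dry 1 and -0.19 without SQ-8 wet 1, the floral median was 0.07 without Bur-0 dry 3, and the guard cell and root medians, both near 0, changed sign with array medians centred (0.06 and 0.10). Among all of these 1 was called, with SQ-8 below (1.93% of all loci), KAT1, a potassium channel gene of guard cells, at -1.52 ± 0.38 (SE, adjusted p = 0.0168), lost without SQ-8 wet 3 or Bur-0 dry 1 (adjusted p from 0.0572 to 0.0573). The part of cell makeup in the other results was not tested. Clock genes were not called either, as TOC1 differed by 0.90 ± 0.66, GI by -0.20 ± 1.15, CCA1 by -1.31 ± 1.98 and LHY by -0.75 ± 2.15, with wide errors. In the remaining lists, 1 of 19 phosphate starvation genes was called with SQ-8 below (1.93% of all loci), MGD2, which encodes a galactolipid synthase used when phosphate is short, at -0.96 ± 0.25 (SE, adjusted p = 0.0184), lost without SQ-8 wet 3 (adjusted p = 0.0856). Its responses had the same sign in both accessions. Sulfate genes had medians of -0.14 in SQ-8 and 0.28 in Bur-0, with 13 of 23 of opposite sign (53.2% of all loci) and 0 called for the difference (median -0.42). The SQ-8 median was 0.02 without SQ-8 wet 1, and the Bur-0 median was 0.09 without Bur-0 dry 1. In the expansin and xyloglucan list 2 of 36 were called with SQ-8 above (2.44%), XTR6 and XTH10, the second with a difference of 0.71 ± 0.18 (SE, adjusted p = 0.0175), lost without SQ-8 dry 1 or SQ-8 wet 3 (adjusted p from 0.0609 to 0.0612).

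**Figure D4:**
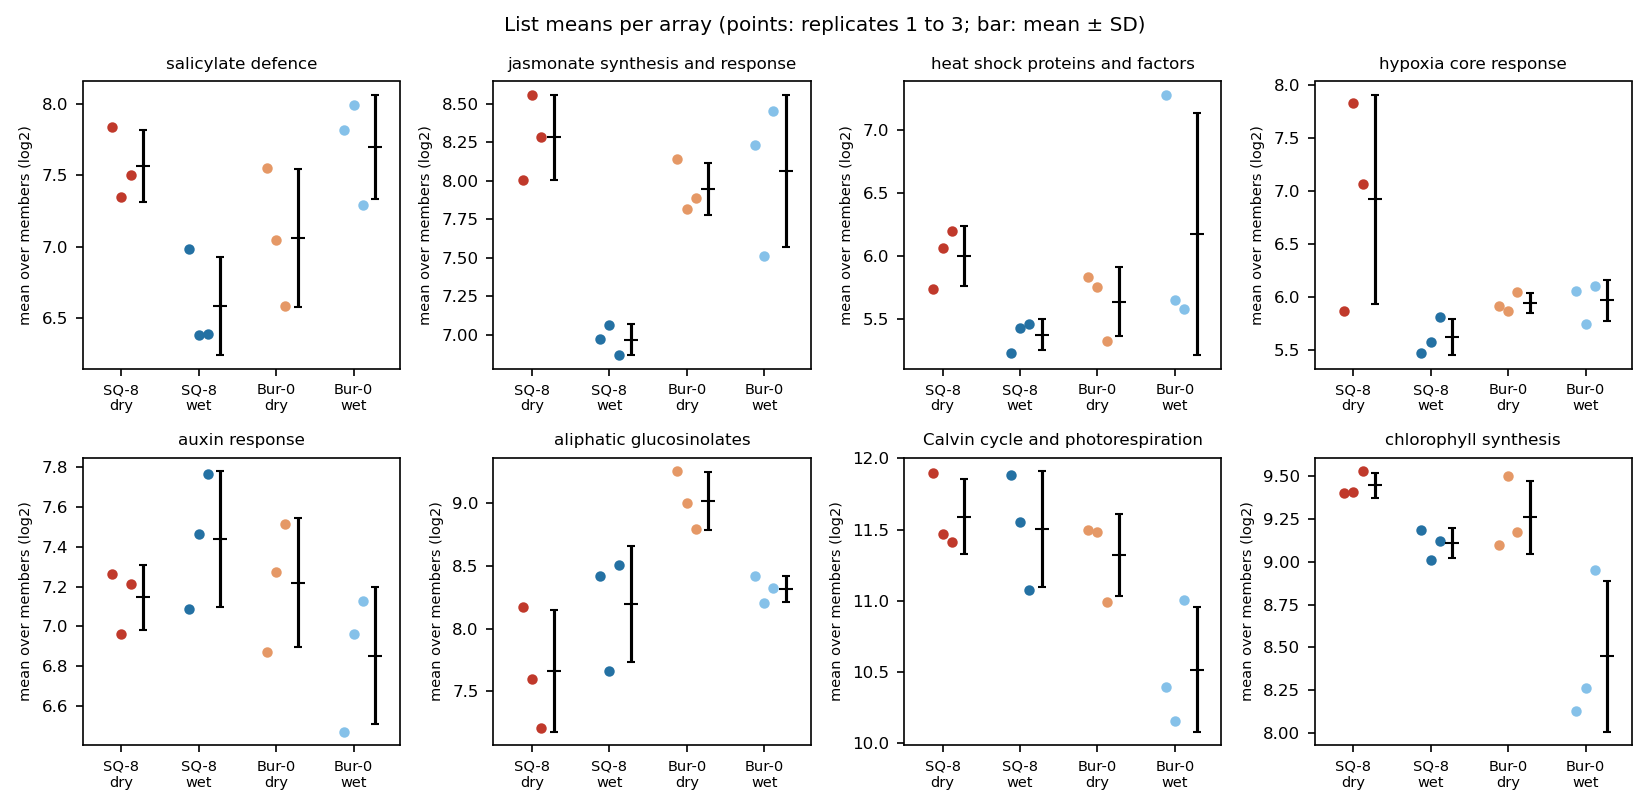
Mean over the members of 8 gene lists on each of the 12 arrays (log2), in the order SQ-8 dry, SQ-8 wet, Bur-0 dry and Bur-0 wet, with the mean and SD of 3 arrays beside the points. The salicylate list averaged 7.56 ± 0.25 in dry and 6.58 ± 0.35 in wet SQ-8 leaves, against 7.06 ± 0.48 in dry and 7.7 ± 0.37 in wet Bur-0 leaves, and Bur-0 wet 1 stands alone in the heat shock panel.

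A difference of responses can go with a difference in wet leaves, in dry leaves or in both, so the accessions were also compared within each watering level. In dry leaves SQ-8 was above Bur-0 at 831 loci (4.01%) and below at 1364 loci (6.58%), and in wet leaves above at 637 loci (3.07%) and below at 628 loci (3.03%). Such levels can also differ through sequence differences under the probes, which was not tested. At the 482 loci up in SQ-8 and down in Bur-0, the median of SQ-8 minus Bur-0 was 0.54 in dry and -0.52 in wet leaves. At the 377 loci of the reverse kind it was -0.59 in dry and 0.34 in wet leaves. These levels make up the differences by which the loci were chosen, so the medians are a description.

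In dry leaves 4 of 30 salicylate genes were higher in SQ-8 (4.01% of all loci), and in wet leaves 12 were lower in SQ-8 (3.03%). EDS16 differed by 0.15 ± 0.32 in dry (adjusted p = 0.83) and by -1.97 ± 0.32 in wet leaves (adjusted p = 4.12e-05). Jasmonate genes were higher in SQ-8 in dry leaves for 5 of 29 and lower in wet ones for 7, against the same shares of all loci. JAZ10 was higher in SQ-8 by 2.68 ± 0.64 in dry leaves (adjusted p = 0.00403), and LOX3 was lower in wet ones, with a difference of -3.15 ± 0.72 (adjusted p = 0.00408). Of 14 hypoxia genes, 6 were higher in SQ-8 in dry leaves and 0 lower in wet ones, again against 4.01% and 3.03%. LBD41 differed by 2.54 ± 0.55 in dry (adjusted p = 0.00176) and by -0.04 ± 0.55 in wet leaves (adjusted p = 0.981).

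For auxin genes 2 of 32 were lower in SQ-8 in dry leaves (6.58% of all loci) and 6 were higher in wet ones (3.07%). HAT2 differed by -0.68 ± 0.51 in dry leaves (adjusted p = 0.438) and was higher in SQ-8 by 1.97 ± 0.51 in wet ones (adjusted p = 0.0133). Light harvesting genes were higher in SQ-8 for 0 of 38 in dry (4.01% of all loci) and 17 in wet leaves (3.07%). Of 13 aliphatic glucosinolate genes, 7 were lower in SQ-8 in dry leaves (6.58% of all loci) and 0 in wet ones (3.03%). MYB28 was lower in SQ-8 in dry leaves, with a difference of -2.28 ± 0.58 (adjusted p = 0.00715), and differed by 0.34 ± 0.58 in wet ones (adjusted p = 0.819).

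**Figure D5:**
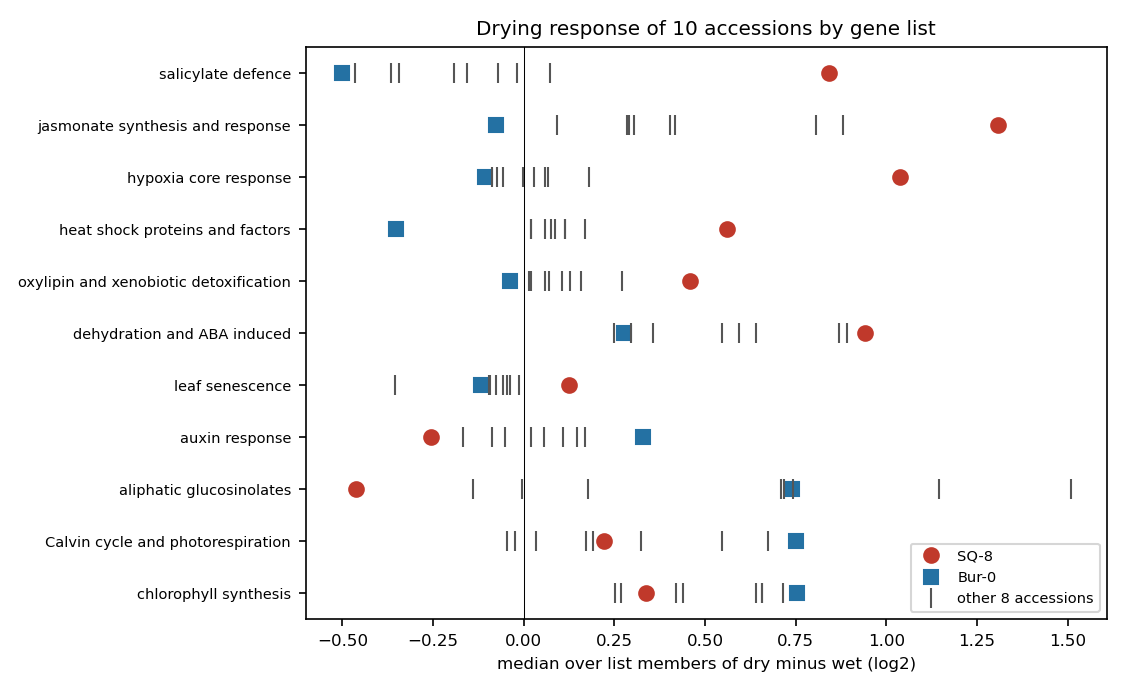
Median over list members of the drying response (dry minus wet, log2) of SQ-8 (red circles), Bur-0 (blue squares) and the other 8 accessions (dark ticks) for 11 gene lists. SQ-8 lies at the high end and Bur-0 at the low end for salicylate, jasmonate, hypoxia, heat shock and detoxification genes, and the reverse holds for auxin genes, although without Bur-0 wet 1 the Bur-0 median for heat shock genes is 0.08.

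The other 8 accessions give a range to set these responses against. The labels of the third wet Col array carry the stock number of Ws-2, so the Col values are also given without it. For salicylate genes the SQ-8 median of 0.84 was the highest of the 10 accessions and the Bur-0 median of -0.50 the lowest, the others lying between -0.46 (NFA-10) and 0.07 (Ler). Bur-0 had -0.27 without Bur-0 dry 3 and -0.35 without Bur-0 wet 2, where 3 and 2 other accessions were lower. For hypoxia genes SQ-8 had 1.04, Bur-0 -0.11 and the others -0.09 (Col) to 0.18 (Ts-1). SQ-8 had 0.34 without SQ-8 dry 2, and without Col wet 3 the lowest of the others was -0.07 (HR-5). Bur-0 was not the lowest of the 10 without Bur-0 dry 2, Bur-0 dry 3, Bur-0 wet 1 or Bur-0 wet 3, when it had -0.07 to -0.01. Jasmonate genes had a median of 1.31 in SQ-8, -0.08 in Bur-0 and 0.09 (HR-5) to 0.88 (Ler) in the others, all 8 of which were above 0. Without Bur-0 wet 3 the Bur-0 median was 0.10, and 1 other was lower. For heat shock genes SQ-8 (0.56) was above and Bur-0 (-0.35) below the range of the others, 0.02 to 0.17. Without Bur-0 wet 1 the Bur-0 median was 0.08, inside that range. Detoxification genes had 0.46 in SQ-8 and -0.04 in Bur-0 around 0.02 to 0.27, and Bur-0 had 0.03 without Bur-0 dry 3 and 0.03 without Bur-0 wet 1, with 2 others lower. Without Col wet 3, Col had -0.04 for these genes. In these 5 lists SQ-8 was above the other 8 with any of its own arrays left out. For the rapid wound, touch and elicitor list Ler (0.29) was above SQ-8 (0.16), and 2 of the other 8 were above 0. Bur-0 (-0.44) was lowest but close to KNOX-18 (-0.43) and Ws-2 (-0.43). It was not the lowest without Bur-0 dry 1, Bur-0 wet 1 or Bur-0 wet 3.

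In auxin genes SQ-8 was lowest (-0.26) and Bur-0 highest (0.33), with the others between -0.17 (Ts-1) and 0.17 (Ws-2). SQ-8 had -0.08 without SQ-8 wet 3, where 2 others were lower, and Bur-0 had 0.15 without Bur-0 wet 1, where 1 other was higher. For aliphatic glucosinolates SQ-8 was lowest (-0.46), while Bur-0 (0.74) lay inside the range of the others, -0.14 (HR-5) to 1.51 (Col). Without Col wet 3, Col had 0.93 and the highest of the others was 1.15 (Ws-2). For the Calvin cycle SQ-8 (0.22) lay inside the range of the others, -0.05 (Col) to 0.67 (NFA-10), and Bur-0 was highest (0.75). Without Col wet 3, Col had -0.07. SQ-8 lay below that range without SQ-8 wet 3 (-0.07), and Bur-0 had 0.65 without Bur-0 wet 1 or Bur-0 wet 2, where NFA-10 was higher. These ranks describe 10 values each and were not tested. SQ-8 and Bur-0 were chosen as a pair with earlier results of these data known.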

How the data were processed

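RNA of rosette leaves was measured on 59 single-colour arrays, of which 12 are SQ-8 and Bur-0. The authors deposited log2 values for 20728 loci, made with MAS5 and RMA per the submitters' processing notes, where no role or version stands beside either name. The sources used here name neither the platform, nor the genome build, nor how probes were assigned to loci. The values were used as deposited. Locus names came from a RefSeq table (TAIR10.1), which matched 20546 loci and left 182 by locus code; 14 loci share their values with another locus.

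All 59 arrays, in 20 groups with a mean each, entered a limma fit (version 3.58.1, under R 4.3.3) with moderated variances, leaving 39 residual degrees of freedom. Contrasts were the SQ-8 minus Bur-0 difference of responses, each response, and SQ-8 minus Bur-0 in dry and in wet leaves. P-values were adjusted over all loci (Benjamini-Hochberg), with a threshold of 0.05. The series calls its replicates biological and does not say how plants were assigned to them. Named loci included the 12 largest called differences each way among loci separated by sign. These had within-number differences all above 0 in SQ-8 and all below 0 in Bur-0, or the reverse. Also named were up to 6 of each list by smallest p, 14 fixed stress, defence and clock genes, and the loci with both responses called in opposite directions. Members and lists were chosen with earlier results of these data known. Alternatives were centring, quantile normalization, leaving out loci with a mean below 5, the 12 arrays alone, trended and robust moderation, a replicate block and leaving out each array. On simulated data for the difference of responses (20728 loci, 200 of them changed), the fit called 57% of loci changed by 1 on the log2 scale and 87% of those changed by 2, with 8 false calls. The simulated noise was drawn independently for each array, with no effect of the replicate number and no array that stood apart. These figures therefore do not cover such effects in the real arrays.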

Additional observations from a re-analysis of the deposited data

Results flagged for a closer look

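These loci stood out because the drying responses of SQ-8 and Bur-0 differed by a test of the difference itself, limma's test with Benjamini-Hochberg adjustment. Values are the SQ-8 response minus the Bur-0 response on the log2 scale.

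Only called loci up in SQ-8 and down in Bur-0 within every replicate number, or the reverse, were eligible for the largest differences. Called loci outside that condition, such as LOX3 and CYP94B3, were left out whatever their difference. With SQ-8 up, the largest were AT3G22600 (4.46), AT2G32140 (4.46), JAZ10 (3.81), AT5G48570 (3.8), XTR6 (3.78), HB1 (3.3), PMZ (3.24), CRK7 (3.22), XBAT34 (3.19), CPK29 (3.1), PP2-A5 (3.08) and GA2OX6 (3.06). The heat shock gene AT5G48570 is high on Bur-0 wet 1 alone among the Bur-0 arrays, and HB1 is highest on SQ-8 dry 2.

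Among the eligible loci with SQ-8 down and Bur-0 up, the largest differences were those of HAT2 (-2.65), MYB59 (-2.41), AT1G15260 (-2.41), BRH1 (-2.26), RFC3 (-2.24), AT3G10120 (-2.23), NF-YB3 (-2.0), CDF3 (-1.98), HB5 (-1.92), AT4G32290 (-1.92), AT2G39670 (-1.88) and IAA1 (-1.88).

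In addition to XTR6 and RFC3, 15 loci had both responses called in opposite directions. Those with SQ-8 up were AT1G67060 (1.73), AT2G04305 (1.15), AT2G20142 (2.7), TET8 (1.19), AT2G33260 (0.85), AT2G42360 (2.08), VPS60.1 (1.67), AT3G49150 (0.65), GLR2.5 (0.91) and AT5G52580 (0.69), and those with SQ-8 down were PUP11 (-1.29), FRS4 (-1.49), CYP72A11 (-1.69), IAA11 (-0.86) and AtRZ-1c (-1.26).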

How the results depend on the processing

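With array medians centred, 1424 loci were called, 1132 with SQ-8 above, 1370 with opposite signs and 28 with both responses called. With only the 12 arrays fitted these were 356, 153, 327 and 2, with 203 with SQ-8 below. Quantile normalization gave 241 with SQ-8 below. Pearson's r was taken across loci between the deviations from group means of arrays with the same number. Between dry and wet arrays it was 0.247, -0.200 and 0.368 for numbers 1 to 3 in SQ-8. In Bur-0 it was 0.437, -0.105 and 0.331. Between SQ-8 and Bur-0 arrays it was 0.339, -0.127 and 0.266 in dry and 0.535, 0.162 and 0.164 in wet leaves. The main fit took the numbers neither as pairs nor as a block. The part of an effect shared by a number in its calls was not tested. With the replicate block 1572 loci were called, 815 with SQ-8 below, 1472 with opposite signs and 49 with both responses called, and with the replicate block as within-number differences the count with SQ-8 below was 717 and that with both responses called 46. The detoxification median was 0.83 centred and 1.01 with dim loci left out, and the senescence mean over members was 0.58.

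With each of the 12 arrays left out in turn, 309 to 1153 loci were called, 181 to 640 with SQ-8 above, 128 to 536 with SQ-8 below, 288 to 1104 with opposite signs and 1 to 27 with both responses called. The median difference was 0.20 to 0.53 for dehydration and 0.46 to 0.86 for detoxification genes. The median of all loci was -0.02 as deposited and 0.09 centred. The cause of these shifts was not tested. Without Col wet 3, a setting added after seeing the data, 896 loci were called. Of the 906 loci, 307 were also called without SQ-8 wet 3 and 399 without Bur-0 wet 1. Of the 78 named loci with a called difference, 46 missed the threshold with only the 12 arrays fitted. CDF3, BAS1, GSTU8 and HTB4 missed the threshold with quantile normalization, and HTB4 also with array medians centred. Signal over background limits dim loci, since a locus near the floor of the scale can show little change.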
